A study of Mus musculus with 56 samples.

Results

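Ins1 and Ins2, the insulin genes of the mouse, were followed in the gastrocnemius muscle of 56 mice. They are 2 of the 15539 genes in the count table, and they were picked because their counts in these same mice stood apart, so their levels below are descriptions with no test. The values that drew attention to them are the counts in 1 group of 7 mice, called MHE, and in mouse 28 of the group MCE.

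The mice were on a C57BL/6 background, ate chow and were labelled as 5 months old. HuR is an RNA-binding protein that Elavl1 encodes. Its floxed allele was recombined by Cre recombinase driven from the Mlc1f promoter, which is active in skeletal muscle. Littermate controls (C) carried the floxed Elavl1 allele too, and the others (H) were labelled HuR skeletal muscle knockouts, written HuRm-/-. Males (M) and females (F) of both genotypes had a running wheel (E) for 10 weeks, from week 10 to week 20, or a locked wheel. This gives 8 groups of 7 mice: MC, MCE, MH, MHE, FC, FCE, FH and FHE. MHE are therefore males labelled HuRm-/- with a running wheel, MCE are their controls with a running wheel, and MH are males labelled HuRm-/- with a locked wheel.

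The labels name a library kit for the 3′ ends of mRNA with forward reads of 50 bases, and the methods describe stranded total RNA depleted of ribosomal RNA, so the library type is not settled here. Library totals ran from 6639782 to 21633091 counts with a median of 12380363, and those of MHE from 8038666 to 14850682. Muscle genes such as Acta1, the actin of skeletal muscle fibres, were high in every group (20750 to 29290 CPM, counts per 1e+06 of the library total, in MHE). The median of Elavl1 was 48.8 CPM in MH and 49.5 in MC, 48.3 in FH and 43.1 in FC, and 56.8 in FHE and 52.7 in FCE, with ranges that overlap in each pair. With the running wheel in males it was 62.4 ± 5.32 CPM (SD, n = 7) in MHE and 45.4 ± 12.4 CPM in MCE, a log2 fold change of 0.44 (SE 0.11) with a limma adjusted p of 0.0242. That call was lost without MCE mice 10, 13 or 25 or MHE mice 1 or 21, each left out in turn, and the direction was kept (0.33 to 0.51 over all 14 mice left out). It was also lost with edgeR quasi-likelihood and with only the 2 groups compared. The ranges overlap in this pair too, at 53.9 to 69.0 CPM in MHE and 29.2 to 56.9 CPM in MCE. The mean of Elavl1 was thus higher, not lower, in MHE than in MCE in these counts. The genotype is given as labelled wherever MHE is set beside MCE. The paper reports by qPCR that Elavl1 mRNA was lower in gastrocnemius of HuRm-/- mice than of controls. Its text describes no running wheels, so those mice need not match MHE and MCE. Reads outside the deleted part of Elavl1 check nothing, and counts per exon were not used here.

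Insulin is a peptide hormone that β cells of the pancreatic islets make as a prohormone, cut by the convertases Pcsk1 and Pcsk2 and by Cpe, and store in secretory granules. Muscle is one of its main targets: insulin binds the receptor Insr on fibres, Irs proteins and the kinase Akt2 pass the signal on, and the glucose transporter Slc2a4 moves to the cell surface. Most mammals have a single insulin gene. Mice and rats have Ins2, the ancestral gene, and Ins1, a copy that arose through an RNA intermediate and kept fewer introns. Skeletal muscle is not known as a source of insulin.

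Both genes were located on GRCm38 with the GENCODE M21 annotation. Ins1 lies on the plus strand at chr19:52264297-52265476 and has 1 annotated transcript, of 2 exons and 1062 bases, with a coding sequence of 327 bases. Ins2 lies on the minus strand with 9 annotated transcripts. The first of them has its exons at chr7:142679662-142679726, chr7:142679347-142679559 and chr7:142678659-142678858, is 478 bases long and has a coding sequence of 333 bases. The coding sequences are shown because the genes are near copies, and reads from one could be counted for the other. In capitals are the bases that differ between them, first in the opening 120 bases of the coding sequence, which lie in exon 2 of each gene (chr19:52264624-52264743 and chr7:142679414-142679533).
Ins1: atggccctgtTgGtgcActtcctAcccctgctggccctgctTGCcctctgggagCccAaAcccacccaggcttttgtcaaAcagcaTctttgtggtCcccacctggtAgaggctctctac
Ins2: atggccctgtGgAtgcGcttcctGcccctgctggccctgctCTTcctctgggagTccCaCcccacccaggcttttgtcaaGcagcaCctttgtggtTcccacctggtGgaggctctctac
The closing 108 bases with the stop codon lie in exon 2 of Ins1 (chr19:52264843-52264950) and exon 3 of Ins2 (chr7:142678713-142678820).
Ins1: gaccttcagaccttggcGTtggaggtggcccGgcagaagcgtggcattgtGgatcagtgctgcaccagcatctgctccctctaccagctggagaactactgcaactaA
Ins2: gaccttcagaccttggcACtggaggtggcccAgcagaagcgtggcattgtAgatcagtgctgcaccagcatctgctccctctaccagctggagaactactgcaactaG
The opening stretches differ at 14 bases and the closing ones at 5. Over the 327 coding bases aligned without a gap, 302 are identical (92.4%). Few stretches of a read's length are the same in both genes: 7 of the 1013 windows of that length in the Ins1 transcript, and 7 of the 429 in this Ins2 transcript, are found letter for letter in a transcript of the other gene. With up to 2 mismatches the number is 114 windows in each. At the 3′ end, in the last 200 bases, none of the 151 windows of Ins1 and 41 of the 151 of Ins2 match the other gene with up to 2 mismatches. The split of counts between Ins1 and Ins2 is thus less certain than their sum.

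Each of the 7 MHE mice had 50 or more counts of each insulin gene. Ins1 had 73 counts in mouse 1, 58 in mouse 2, 58 in mouse 4, 106 in mouse 6, 91 in mouse 7, 50 in mouse 21 and 68 in mouse 22. Ins2 had 124, 76, 76, 121, 92, 136 and 128 counts in the same mice. Mice 2 and 4 shared both counts, with library totals of 12539506 and 14850682. The labels give no date or batch of library preparation or sequencing, so whether these libraries shared a step with each other, or with samples of another tissue, was not tested.

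Scaled to the library total, Ins1 was at 5.25 CPM in MHE mouse 1, 4.63 in mouse 2, 3.91 in mouse 4, 8.88 in mouse 6, 11.3 in mouse 7, 4.48 in mouse 21 and 6.11 in mouse 22. Ins2 was at 8.92, 6.06, 5.12, 10.1, 11.4, 12.2 and 11.5 CPM in the same order. The means were 6.37 ± 2.73 CPM for Ins1 and 9.34 ± 2.79 CPM for Ins2 (SD, n = 7). Mouse 4, the lowest for both genes, had counting intervals of 2.97 to 5.05 CPM for Ins1 and 4.03 to 6.41 CPM for Ins2 (exact Poisson, 95%), and those of mouse 7 were 9.11 to 13.9 and 9.23 to 14.0 CPM. These intervals are given as a description and cover counting error only. These are middling levels for a listed gene: Ins1 lay between the 43.3 and 60.1 percentiles of all genes of a mouse, and Ins2 between the 48.3 and 63.5 percentiles.

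MCE mouse 28, a male control with a running wheel, had 86 counts of Ins1 and 108 of Ins2, or 6.72 and 8.44 CPM. Both values lie within the range of the MHE mice. The other 6 MCE mice had Ins1 counts of 1 in mouse 10, 1 in mouse 13, 3 in mouse 25 and 0 in mice 5, 26 and 27. Their Ins2 counts were 2, 1 and 3 in mice 10, 13 and 25, 6 in mouse 26 and 0 in mice 5 and 27.

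In the other 6 groups no mouse had more than 4 counts of either gene. Ins1 had a lowest, median and highest count of 0, 0 and 2 in MC, 0, 1 and 1 in MH, 0, 0 and 2 in FC, 0, 0 and 1 in FCE, 0, 0 and 1 in FH, and 0, 0 and 3 in FHE. Ins2 had 0, 0 and 2 counts in MC, 0, 1 and 4 in MH, 0, 1 and 2 in FC, 0, 1 and 2 in FCE, 0, 0 and 1 in FH, and 0, 1 and 2 in FHE. All 7 MHE mice stood above all 42 of these mice for both genes, with no overlap.

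**Figure D1:**
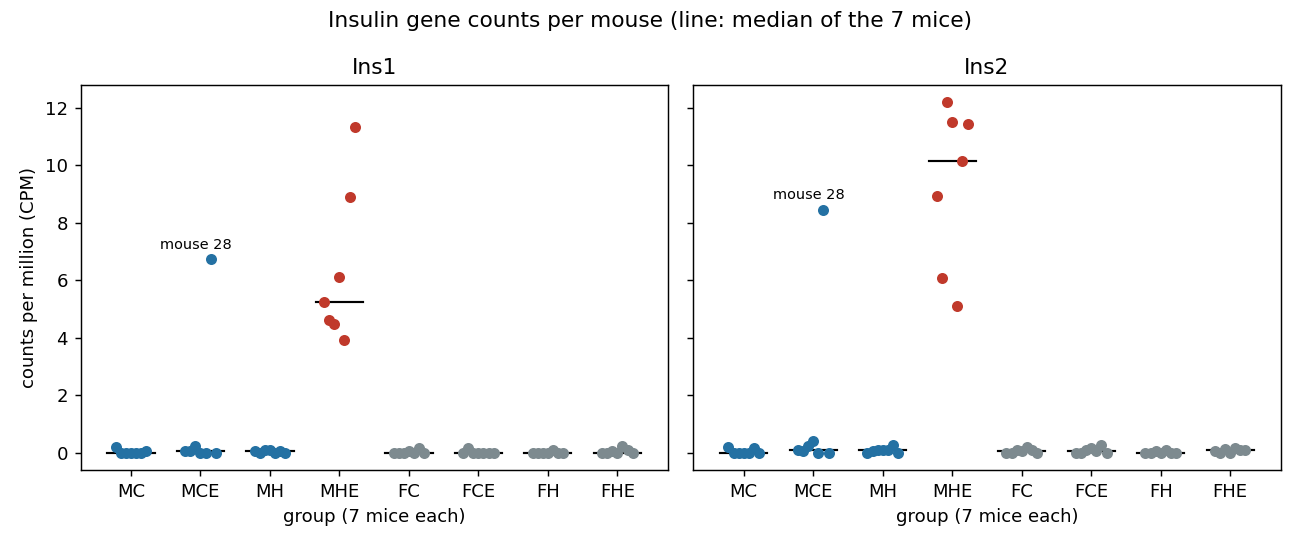
Ins1 (left) and Ins2 (right) in CPM for each mouse, by group, with a line at the median of the 7 mice. The MHE mice lie between 3.91 and 11.3 CPM for Ins1 and between 5.12 and 12.2 CPM for Ins2, MCE mouse 28 lies among them, and the 48 other mice lie at or below 0.404 CPM.

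Counted over the series, 504 of the 612 counts of Ins1 were in MHE, 86 were in MCE mouse 28 and 22 were spread over the other 48 mice. For Ins2, 753 of 904 counts were in MHE, 108 in MCE mouse 28 and 43 in the other 48 mice. Of these 48 mice, 32 had no count of Ins1, 22 had none of Ins2 and 19 had neither. A count of 0 allows up to 0.441 CPM of Ins1 and 0.452 CPM of Ins2 in the shallowest such library (3 counts of the total), still below the lowest MHE values. Lower levels than this were not measurable at this depth, so the transcripts are not shown to be absent from the other groups.

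Ordered by their mean, the groups ran MHE, MCE, FHE, MH, MC, FC, FCE, FH for Ins1. The means were 6.37, 1.01, 0.0525, 0.0430, 0.0372, 0.0354, 0.0215 and 0.0118 CPM. The second place of MCE rests on mouse 28, and without it the pooled MCE counts fell from 91 to 5. From the third place down neighbours differed by less than their SDs (0.0312 to 0.0834 CPM). For Ins2 the order was MHE, MCE, MH, FCE, FHE, FC, MC, FH, with means of 9.34, 1.32, 0.0843, 0.0839, 0.0716, 0.0644, 0.050 and 0.0219 CPM. Again neighbours from the third place down lay within their SDs (0.0376 to 0.100 CPM).

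Set beside MH, the males labelled HuRm-/- with a locked wheel, the pooled CPM of Ins1 was 144-fold higher in MHE (504 against 4 counts, 95% counting interval 55.9 to 530.6). For Ins2 the ratio was 107.6 (753 against 8 counts, interval 54.3 to 250.1). Set beside MCE, the ratios were 7.54 (interval 6.02 to 9.54) for Ins1 and 8.55 (7.04 to 10.4) for Ins2 with mouse 28. Without it they were 121.9 (51.9 to 377.0) and 75.9 (43.2 to 147.5). All these intervals take pooled counts as the units and leave out the spread between mice, so they are descriptions only. In females the same wheel and genotype labels went with 5 counts of Ins1 in FHE against 1 in FCE, and 7 counts of Ins2 against 6.

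On the scale of mean log2(CPM + 0.5), which understates changes of low genes, MHE stood above MH by 3.58 for Ins1 and 4.03 for Ins2. Against MCE the differences were 3.02 and 3.38, and without mouse 28 they were 3.55 and 3.94. Of all 15539 genes, 2 had every MHE mouse above every one of the 42 mice outside MHE and MCE, which is 0.0129%, and they were Ins1 and Ins2. No gene had every MHE mouse below those 42. Every MHE mouse above every MH mouse was found for 44 genes (0.283%), both insulin genes included. Every MHE mouse above every MCE mouse was found for 85 genes (0.547%), and the insulin genes are not among them because of mouse 28. In the fit of all genes with limma, 6 of 14321 genes (0.0419%) were called between MHE and MH at an adjusted p of 0.05, and 376 (2.63%) between MHE and MCE. Higher in MHE than MH were 3 (0.0209%) and lower were 3 (0.0209%). Higher in MHE than MCE were 108 (0.754%) and lower were 268 (1.87%). Ins1 and Ins2 are among the higher genes of both, but they had been chosen on those contrasts, and they passed the filter on low counts only through the mice where they were high.

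Each mouse with 50 or more counts of Ins1 had 76 or more of Ins2, and no mouse had only one of the genes at that level. On log2(CPM + 0.5) the Pearson r between them was 0.98 over 56 mice, and the points fall into separate clusters, so this value describes the distance between them. Within MHE r was 0.57 and Spearman's rho 0.36 (n = 7), and r was 0.65 without the 2 mice farthest from the median. The counts share library, depth and sequence, and no p is given.

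**Figure D2:**
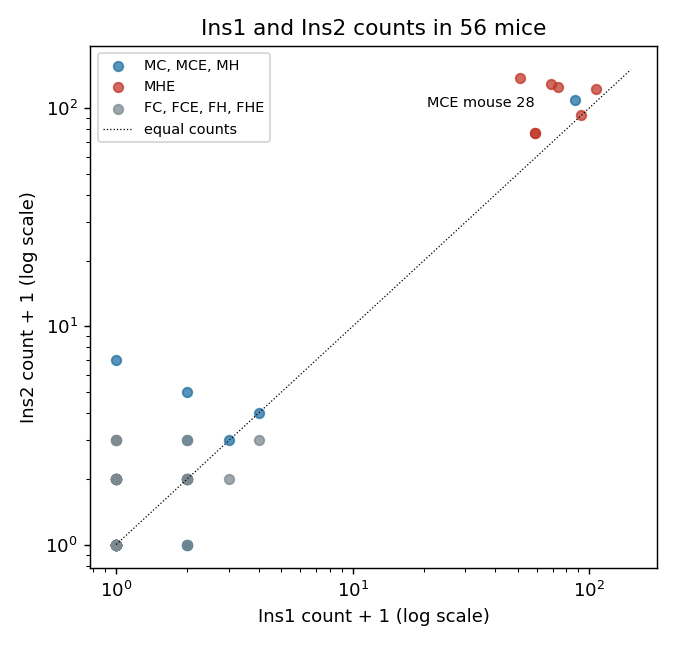
Ins1 count plus 1 (x axis, log scale) against Ins2 count plus 1 (y axis, log scale) in 56 mice, with a dotted line where both are equal. The 7 MHE mice and MCE mouse 28 sit at 50 or more counts of Ins1 and 76 or more of Ins2, and no other mouse has more than 6 counts of either.

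Ins2 took 62.9% of the insulin counts in mouse 1, 56.7% in mouse 2, 56.7% in mouse 4, 53.3% in mouse 6, 50.3% in mouse 7, 73.1% in mouse 21 and 65.3% in mouse 22. The counting interval of the share (Wilson, 95%) was 66.3 to 79.0% in mouse 21 and 43.1 to 57.4% in mouse 7. The mean share was 59.8 ± 7.85% (SD, n = 7), and that of the summed counts was 59.9%. In MCE mouse 28 it was 55.7% (48.6 to 62.5%), within the MHE range. The 22 counts of Ins1 and 43 of Ins2 in the other 48 mice gave, when summed, 66.2% (54.0 to 76.5%).

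These are shares of counts and not of molecules. Divided by the lengths of these transcripts, Ins2 stood above Ins1 by 2.25 to 6.04 times in CPM per transcript base in MHE, with a median of 2.91, and by 2.79 times in MCE mouse 28. That correction fits reads spread along transcripts. Reads from 3′ ends would need none, and then the shares of counts apply.

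**Figure D3:**
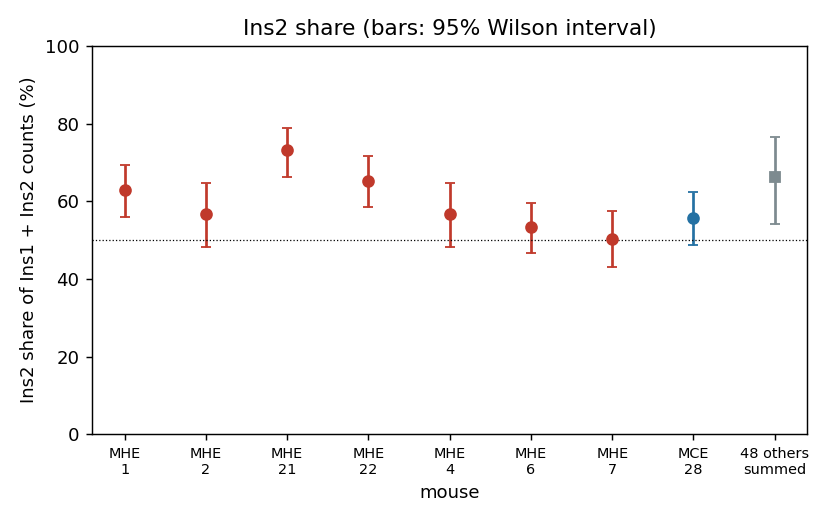
Ins2 as a percentage of Ins1 plus Ins2 counts in each MHE mouse, in MCE mouse 28 and in the summed counts of the 48 other mice, with 95% Wilson intervals for counting error and a dotted line at 50%. Shares in MHE run from 50.3% in mouse 7 to 73.1% in mouse 21, and that of MCE mouse 28 is 55.7%.

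The log2 CPM profile of MCE mouse 28 had a Pearson r of 0.980 to 0.984 with the other 6 MCE mice, which had 0.976 to 0.989 among themselves. Its Ddx3y, a Y-linked gene, was at 127 CPM and its Xist at 0.625 CPM, as its male label asks. On CPM + 0.5, over the median of the other 6 MCE mice, Ins2 (15.3-fold) and Ins1 (13.8-fold) were the second and the fourth highest genes of this mouse. The others of the first 5, named here after their values were seen, were Ibsp (19.6-fold), a bone matrix protein, Kap (14.3-fold), a kidney transcript, and Slc1a2 (8.96-fold), a glutamate transporter of glia. These did not share the insulin pattern: in MHE, Ibsp ran from 0 to 0.135 CPM, Kap from 0 to 2.43 and Slc1a2 from 0 to 3.76 CPM, against 10.0, 13.3 and 9.07 CPM in mouse 28. In the groups other than MHE and MCE they reached 6.82, 127.0 and 134.3 CPM, so they were not particular to mouse 28. Myl1, whose promoter drives the Cre, was at 10110 CPM in mouse 28, near the MCE median of 10730 CPM, while the MHE median was 5858 CPM with a highest value of 10330 CPM. The ranges of this gene overlap between MCE (10070 to 12930 CPM) and MHE (5390 to 10330 CPM).

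No tested gene that accompanies insulin in a β cell passed the limma test. Of 18 β cell genes fixed for this report, 7 are in the table and 5 passed the filter, of 10 genes of other islet cells 4 and 3, and of 14 genes of prohormone processing and secretory granules 12 and 10. By limma none of these 18 tested genes was called in either direction between MHE and MCE (2.63% of all genes were), between MHE and MH (0.0419%) or between FHE and FCE (0%). DESeq2 called Abcc8, a subunit of the β cell potassium channel, and Pcsk2 lower in MHE than MH. The lists' median log2 fold changes between MHE and MCE were -0.06, 0.40 and -0.12, beside 0.00 for all genes. Between MHE and MH they were -0.57, -0.67 and -1.99, beside 0.00 for all genes, and none of the 3 medians was above 0. In the same comparison the neuron and glia list had -1.82 and the liver list -1.96, the muscle fibre list -0.15 and the adipocyte list 0.63. Low medians there were thus not particular to the islet and granule lists. Of the islet genes that would be looked at first, Iapp, Pdx1, Gcg and Ppy were not analysed here, and neither was any of 26 genes of the pancreatic acinus.

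Sst, the hormone of islet δ cells and of some neurons, had 1 to 4 counts in each MHE mouse (0.0720 to 0.373 CPM). It had 8 counts in MCE mouse 28 (0.625 CPM), was at 0 in 5 of the 7 MCE mice, and reached 183 counts (9.95 CPM) in MH. Its log2 fold change was 1.62 (SE 1.29, limma adjusted p = 0.604) between MHE and MCE and -1.34 (SE 0.92, adjusted p = 0.570) between MHE and MH. With edgeR quasi-likelihood these were -0.02 and -3.09, with DESeq2 the second was -3.14, and without MH mouse 9 it was -0.40. Chga, the granule protein chromogranin A, was at 0.0720 to 0.754 CPM in MHE, 0 to 0.860 CPM in MCE with mouse 28 the highest, and 0 to 5.65 CPM in MH. Its log2 fold changes were 0.51 (SE 1.06, adjusted p = 0.889) and -0.97 (SE 0.92, adjusted p = 0.717). They were 0.04 without MCE mouse 27 and -0.17 without MH mouse 9, and 0.15 and -2.28 with edgeR quasi-likelihood, so the sizes of these low genes are not settled. The MHE range of each gene overlapped those of MCE and MH.

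Among the β cell transcription factors, Neurod1 had at most 1 count in any MHE mouse, and Mafa had 2 to 8 counts (0.202 to 0.638 CPM) against 0 to 7 in MCE. The convertase gene Pcsk2 was at 0.0673 to 0.539 CPM in MHE and at 0 to 15.5 CPM in MH. Its partner Pcsk1 was at 0 to 0.502 CPM in MHE. Cpe, which trims the cut prohormone and is used by many tissues, was at 130 ± 9.78 CPM in MHE and 129 ± 11 CPM in MCE (SD, n = 7). Slc2a2, the glucose transporter of β cells and liver, was at 0 to 2.51 CPM in MHE and highest of the MCE mice in mouse 28 (1.25 CPM). Sytl4, a granule docking protein, had the smallest adjusted p of the β cell list against MH. It was at 0.448 to 1.49 CPM in MHE, 0.235 to 0.866 in MCE, where mouse 28 was the lowest, and 0 to 0.513 in MH, with a log2 fold change against MH of 2.50 (SE 0.65, adjusted p = 0.139).

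Of the 23 listed islet and granule genes, none had every MHE mouse above every MH mouse (0.283% of all genes did) or above every MCE mouse (0.547%). At shares this low, none among 23 genes says little about them. Of these 23 genes, 18 had a median under 1 CPM in MHE. The 7 β cell genes summed to 2.45 to 9.38 CPM in MHE, 3.64 to 7.19 CPM in MCE and 2.78 to 12.7 CPM in MH. MCE mouse 28 had the highest MCE sum of the β cell genes (7.19 CPM), of the other islet genes (3.83 CPM), of the liver genes (148.1 CPM) and of the adipocyte genes (419.1 CPM), and the part of these in its insulin counts was not tested.

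The mice with the 5 highest sums of granule genes had 0 to 3 insulin counts each. Without Cpe, 11 of them summed to 2.02 to 7.61 CPM in MHE, with MCE mouse 28 at 7.82 CPM. MH mouse 9 had the highest sum, 101.4 CPM, together with the highest neuron and glia sum, 892.3 CPM, and had 0 counts of both insulin genes. FC mouse 33 was second with 59.2 CPM and also had 0 counts of both. In MHE the 13 neuron and glia genes summed to 378.6 to 462.9 CPM. None was called in the 3 comparisons (2.63%, 0.0419% and 0% of all genes were). Sums of the 12 liver genes were lowest in MHE mice 1, 4, 7 and 2, at 16.1, 23.43, 84.96 and 85.73 CPM. These mice had 14.17, 9.023, 22.76 and 10.69 CPM of Ins1 plus Ins2. In MHE mice 21, 22 and 6 the liver sums were 470.4, 532.3 and 579.5 CPM. Their Ins1 plus Ins2 levels were 16.66, 17.61 and 19.01 CPM. Whether the insulin level went with the liver sum was not tested.

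**Figure D4:**
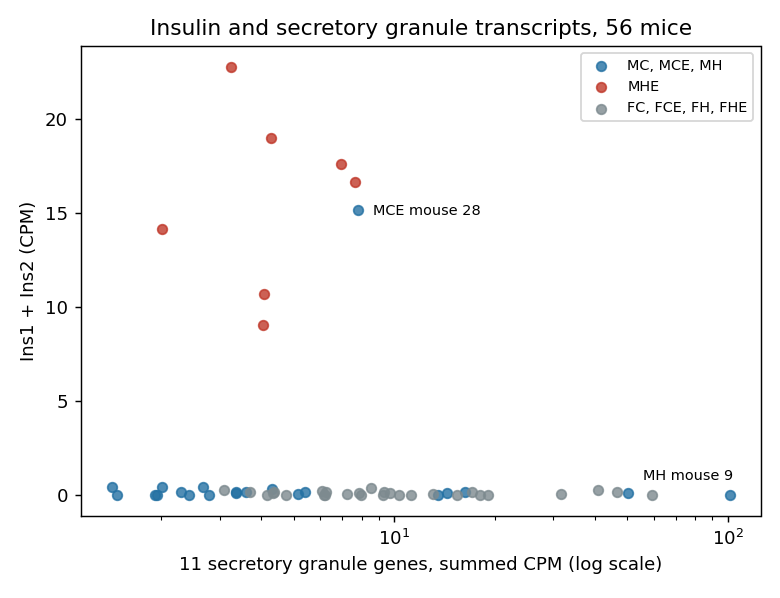
Summed CPM of 11 secretory granule genes (x axis, log scale) against Ins1 plus Ins2 CPM (y axis) in 56 mice. The MHE mice have granule sums of 2.02 to 7.61 CPM, and the mice with the highest granule sums, among them MH mouse 9 at 101.4 CPM, have 0 to 3 insulin counts.

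No tested transcript of the insulin pathway in muscle itself was called between these groups by limma. Of all genes 2.63% were called between MHE and MCE, 0.0419% between MHE and MH and 0% between FHE and FCE. By these shares alone, lists of this size would hold few calls or none. Of the related ligands 2 of 7 were listed, and neither Igf1 nor Igf2, both growth factors that muscle makes, was called. Igf2 was at 19.3 ± 2.74 CPM in MHE and 19 ± 3.89 CPM in MCE (SD, n = 7), a log2 difference of -0.02 (SE 0.13, limma adjusted p = 0.971). Igf1 was at 61.9 ± 12.8 and 59.9 ± 8.74 CPM.

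Insr, the insulin receptor, was at 35.0 ± 3.15 CPM in MHE, 36.0 ± 2.36 CPM in MCE and 30.8 ± 1.97 CPM in MH. Its log2 fold change was -0.12 (SE 0.09, adjusted p = 0.561) against MCE and 0.11 (SE 0.09, adjusted p = 0.680) against MH. MCE mouse 28 had the lowest Insr of its group, 33 CPM. Of 11 tested receptors and binding proteins, limma called none in the 3 comparisons (2.63%, 0.0419% and 0% of all genes were). Their median log2 fold change against MCE was 0.07. With only the 2 groups compared Igfbp3, which binds insulin-like growth factors, was called higher in MHE than MCE, and with sample quality weights Igfbp3 and Igf2r were.

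Of the 33 genes of insulin signalling, all tested, none was called between MHE and MCE (2.63% of all genes were) or between MHE and MH (0.0419%). None called among 33 genes is near those shares. The median was -0.04 against MCE and 0.03 against MH. The smallest adjusted p was that of Rps6kb1, the kinase S6K1, at 46.0 ± 7.93 CPM in MHE and 51.4 ± 3.16 CPM in MCE, with a log2 fold change of -0.25 (SE 0.09, adjusted p = 0.109). It was called lower with sample quality weights and without MHE mouse 4. Slc2a4, the glucose transporter that insulin brings to the surface, was at 305.4 ± 37.0, 299.6 ± 17.8 and 255.1 ± 41.3 CPM in MHE, MCE and MH. Neither it nor Irs1 (90.7 ± 13.1 and 90.0 ± 11 CPM in MHE and MCE) was called.

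None of 6 transcripts that insulin regulates in muscle was called either, between MHE and MCE (2.63% of all genes were) or MHE and MH (0.0419%). Hk2, the hexokinase that insulin raises, was at 304.3 ± 22.4 CPM in MHE and 309.6 ± 41.1 CPM in MCE. Pdk4, the pyruvate dehydrogenase kinase that insulin lowers, was at 114.4 ± 24 CPM in MHE and 75.6 ± 47.4 CPM in MCE, a log2 fold change of 0.73 (SE 0.48, adjusted p = 0.505). A p over the threshold does not show that these genes were equal in the groups, and in bulk tissue fewer cells of a type and less RNA per cell cannot be told apart.

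**Figure D5:**
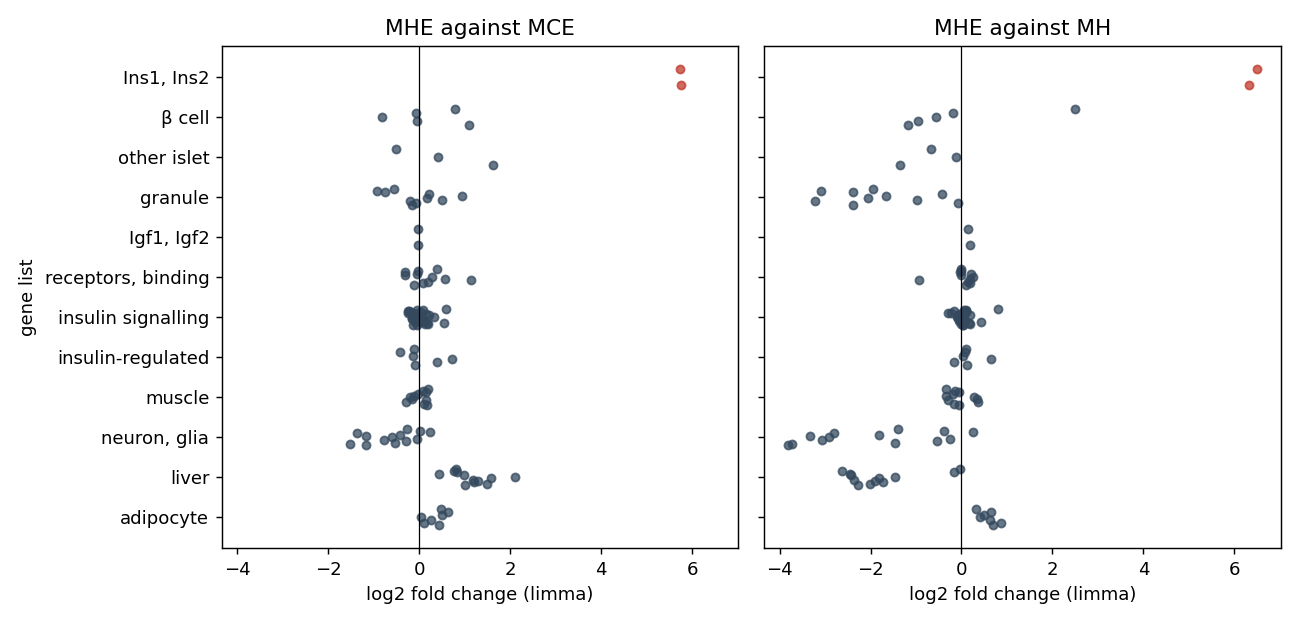
Fitted log2 fold changes (x axis, limma) of the tested genes of each list, with MHE against MCE on the left and MHE against MH on the right, 1 point per gene. Ins1 and Ins2 were chosen on these values and are drawn for scale, and no point of the other lists passed an adjusted p of 0.05.

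The genes next to Ins1 and Ins2 in the genome were described as well. The nearest listed genes on either side of Ins1 were Sorcs1 and Xpnpep1, with log2 fold changes between MHE and MCE of -0.15 (SE 0.26, limma adjusted p = 0.857) and -0.12 (SE 0.10, adjusted p = 0.609). On either side of Ins2 they were Igf2, given above, and Tspan32, at 1.10 (SE 0.55, adjusted p = 0.316). Of the 5 listed genes on each side of each insulin gene, those of Ins1 were Gsto1, Gsto2, Cfap43, Sorcs3, Sorcs1, Xpnpep1, Add3, Mxi1, Smndc1 and Dusp5. Those of Ins2 were Tnnt3, Mrpl23, Nctc1, H19, Igf2, Tspan32, R74862, Cd81, Tssc4 and Kcnq1. By limma none was called between MHE and MCE (2.63% of all genes were) or between MHE and MH (0.0419%), and Gsto2 was not tested. None had every MHE mouse above every MH mouse (0.283% of all genes did). At these shares a set this small would hold few such genes or none. The smallest adjusted p against MCE was that of H19, a noncoding RNA of muscle (log2 fold change 0.71, SE 0.23, adjusted p = 0.0752).

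Upstream of Ins1 the letters of known insulin promoter elements are present. The 250 bases before the start are given from RefSeq, GRCm38.p6, plus strand, chr19:52264047-52264296, with capitals for GCCATCTG, an E box that islet basic helix-loop-helix factors bind, and for TAAT, the core that homeodomain factors such as Pdx1 bind, on either strand.
Ins1: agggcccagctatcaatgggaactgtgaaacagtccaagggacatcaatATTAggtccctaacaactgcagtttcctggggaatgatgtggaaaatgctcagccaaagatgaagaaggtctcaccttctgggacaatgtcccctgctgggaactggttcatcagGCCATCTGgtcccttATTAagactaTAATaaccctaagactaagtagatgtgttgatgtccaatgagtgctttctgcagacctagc
Within these bases GCCATCTG occurs at 1 place and TAAT at 3. In the full Ins1 window of 300 bases, which adds 50 bases after the start, GCCATCTG occurs at 2 places and TAAT at 3. Over all 32851 promoter windows of 300 bases, searched on both strands, 1.32% hold GCCATCTG and 58.0% hold TAAT. These matches describe the sequence, and no binding was measured here.

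By Pearson r over 56 mice, no other gene resembled an insulin gene as closely as the insulin genes resembled each other (r = 0.98). By Spearman's rho Sh3bp5 was nearer to Ins2 (0.67) than Ins1 was (0.64). By Pearson r of log2(CPM + 0.5), the 10 nearest to Ins1 after Ins2 were Dusp10, Erfe and Sh3bp5 (each at 0.55), then Ier5, Vasp, Ppp2r1a, Rgs5, Rfx1, Ankrd2 and Mmadhc (down to 0.51). For Ins2 they were Sh3bp5 (0.58), Erfe (0.58), Dusp10 (0.56), Ppp2r1a, Slc37a1, Vasp, Rfx1, Ankrd2, Casz1 and Mrps2 (0.50), 7 of them in common with Ins1. Their levels in MHE overlapped those of the 42 mice outside MHE and MCE. Sh3bp5, a binding partner of kinases, was at 71.9 to 95.5 CPM in MHE and 38.6 to 81.7 CPM in those 42 mice. Erfe, the hormone erythroferrone, was at 0.135 to 1.08 CPM in MHE and 0 to 0.986 CPM in those 42 mice. With the MHE mice left out, none of the 10 stayed among the nearest 10 of either gene. Ibsp then came first (r = 0.57 for Ins1 and 0.52 for Ins2, n = 49). It was high in MCE mouse 28, as given above, and reached 6.82 CPM outside MHE and MCE. Without MCE mouse 28, 7 of the 10 stayed for each gene. By Spearman's rho 1 of the 10 stayed for Ins1 and 2 for Ins2.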

How the data were processed

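RNA of 56 gastrocnemius muscles was sequenced. The authors deposited 1 table of raw counts, whole reads per gene without normalization (smallest total of a listed gene 168). Per the submitters' processing notes GRCm38/mm10, R 4.0.3 and edgeR 3.38.4 were used, and the aligner is not given in the sources used here. Groups came from the labels. CPM are counts per 1e+06 of the library total. Here genes passing filterByExpr (edgeR 4.0.16) were scaled by TMM, weighted by voom and fitted with limma 3.58.1 over all 8 groups, with Benjamini-Hochberg adjustment over 14321 genes. The fit was tested on simulated data: 155 of 200 genes changed by 2-fold between simulated MHE and MCE were recovered among 14160, with 8 false calls. The changed genes were drawn from those with an average of at least 10 counts. Recovery of lower genes, such as most islet and granule genes, was therefore not tested. The limma p-values set a difference between groups against the spread between mice within groups, estimated over all 8 groups. Named genes are Ins1 and Ins2, the 10 most alike by r, up to 3 called members of each list (none was called apart from Elavl1), Iapp, Gcg, Sst, Ppy, Pdx1, Chga and Insr, and the 5 listed genes on each side. Other members of lists were named for their roles or after their values were seen. The members and lists were chosen with earlier results of these data known. Other scalings, filters, tools (DESeq2 1.42.0, edgeR quasi-likelihood) and leaving out mice were tried. Sequences came from GENCODE M21 and RefSeq. The promoter tables matched Ins1 and not Ins2.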

Additional observations from a re-analysis of the deposited data

Results flagged for a closer look

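In each group of 7 mice the highest and the lowest value of Ins1 and of Ins2 was set against Dixon's limit (a gap to the nearest mouse above 0.568 of the group's range). Of 16 sets of 7, 9 had a mouse beyond it. Chance flags about 1 in 20 groups, but values that are mostly 0 give such gaps easily, and 6 of the 9 rest on a count of 3 or less. In MCE, mouse 28 stood apart for Ins1 (6.72 CPM) and for Ins2 (8.44 CPM). This mouse was picked on these same counts, so its flags were fixed in advance and are a description, not a test. The others were low counts: Ins1 at 0.203 CPM in MC mouse 16, 0.178 CPM in FC mouse 32, 0.151 CPM in FCE mouse 25, 0.0827 CPM in FH mouse 30 and 0.225 CPM in FHE mouse 3, and Ins2 at 0.256 CPM in MH mouse 8 and 0.210 CPM in FC mouse 20. No MHE mouse was beyond the limit for either gene.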

How the results depend on the processing

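The levels of Ins1 and Ins2 kept their direction under each alternative run. The genes were chosen for this gap, so the kept direction lends it no support, and only the sizes are described. With TMM-scaled library sizes they moved by less than the spread between mice. With a pseudocount of 2 the differences of mean log2 CPM shrank to 1.67 (Ins1) and 2.04 (Ins2) against MCE and to 1.98 and 2.40 against MH. Leaving out single mice, they ran from 2.88 to 3.55 (Ins1) and 3.24 to 3.94 (Ins2) against MCE, the highest without MCE mouse 28, and from 3.43 to 3.67 and 3.96 to 4.15 against MH. Counts of called genes moved more, and the cause was not tested. Between MHE and MCE (376 genes) they were 223 with only the 2 groups compared, 1037 with sample quality weights, and 86 (without MCE mouse 10) to 521 (without MHE mouse 4) with 1 mouse left out. Without MCE mice 13 and 25, and MHE mice 1, 2, 21 and 22, each in turn, they were 223, 222, 228, 189, 157 and 150. Between MHE and MH (6 genes) they were 245 with DESeq2, 46 with edgeR quasi-likelihood, 2 with only the 2 groups compared, 16 with quality weights, and 2 (without MHE mouse 6) to 10 (without MH mouse 12) with 1 mouse left out. Without MHE mouse 7 it was 3. Between FHE and FCE limma called 0 genes (1807 at an unadjusted p under 0.05), edgeR quasi-likelihood 0, DESeq2 77, only the 2 groups compared 70, quality weights 16, and leaving out 1 mouse gave 0 to 6, with 6 without FHE mouse 10 and 2 without FHE mouse 3. Of the 69 genes tested from the insulin, islet and granule lists, none was called with limma as planned. Of all genes 2.63% were called between MHE and MCE, 0.0419% between MHE and MH and 0% between FHE and FCE. Igfbp3 was called higher in MHE than MCE with only the 2 groups compared, and together with Igf2r with quality weights. Rps6kb1 was called lower with quality weights and without MHE mouse 4. Abcc8 and Pcsk2 were called lower in MHE than MH with DESeq2, and Srebf1 higher in FHE than FCE with only the 2 groups compared. Elavl1 was no longer called between MHE and MCE with edgeR quasi-likelihood (log2 0.38) or with only the 2 groups compared (0.44). Myl1 was called lower in MHE than MCE with only the 2 groups compared, with quality weights and without MHE mouse 4, and lower in FHE than FCE with only the 2 groups compared. No paired analysis was possible because the labels do not pair mice across the groups compared. Depth limits what can be said of mice with 0 to 6 insulin counts, and islet genes outside the table were not analysed here.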
